A study of Colocasia esculenta with 4 samples.

Results

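Same-strand neighbours with an equal number of exons, which are candidate tandem copies of a gene, were examined in shoot apices of taro, Colocasia esculenta, an aroid grown for its starchy corms. Pairs were found from gene positions in the deposited count files. Both genes of a pair lay next to each other on the same strand, 0 to 20000 bp apart. They had the same number of exons (2 or more, after overlapping exons were merged) and total exon lengths of which the shorter was at least 0.8 of the longer. The introns of each gene summed to more than 500 and less than 20000 bp. The search covered the first 187 Mb of LG03, LG05 beyond its first 8 Mb, the first 112 Mb of LG07 and the whole of LG09, LG11 and LG12. Those regions had been selected on read counts, as the places where most genes had reads, so the share of detected genes in them is not a finding. The rule gave 41 pairs with 81 genes, of 10950 genes in these regions and 28695 in the annotation. They were set beside 897 same-strand pairs of unequal exon number (1629 genes) that met the same limits on gap, introns and a minimum of 2 exons.

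RNA came from the apical meristem with the leaf primordia and very young leaves around it, from the cultivar 'Bing Liang' (also spelled 'Bin Liang' in the labels). All 4 libraries form a single group with no treatment or second tissue, and the labels do not say whether they came from separate plants. The spread between them, and p-values resting on it, may therefore be technical. The libraries held 22252534 to 25434148 assigned counts. Replicate 4 stood apart from the other libraries in many pairs, and its part is given beside the results it touches. The files pair no identifier with a gene name, so no gene function is given, no gene list could be filled and the tissue could not be checked against marker genes.

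Tandem duplication places a copy of a gene next to the original, usually in the same orientation, and is a main source of gene families in plants. Copies tend to keep their exon boundaries, above all those of internal exons, while untranslated ends, introns and promoters change faster. Such copies may share an expression pattern, divide it between them, or leave a copy with little transcript. No sequences were compared here, so whether any pair is a true duplication is not known.

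Exon structure set 11 of the 41 pairs apart. In these pairs, called exon-matched below, at least 50% of the exons had the same length to the base at the same rank, counted in the direction of transcription. The equal exons were mostly internal. Of 42 internal exons compared in the 11 pairs, 39 had equal lengths, against 2 of 11 first exons and 1 of 11 last exons. The definition fixes a high share of equal exons in these pairs, but not their rank. A gene shared by 2 of the pairs was compared in both. The last exons that differed did so by 27 to 353 bp, with a median of 92 bp. In 9 of the 11 pairs every internal exon was equal, and in 0 pairs all exons were. The other 30 pairs were less alike. In 26 of the 41 pairs no exon had an equal length, so equal exon number alone often came without matching exons.

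**Figure D1:**
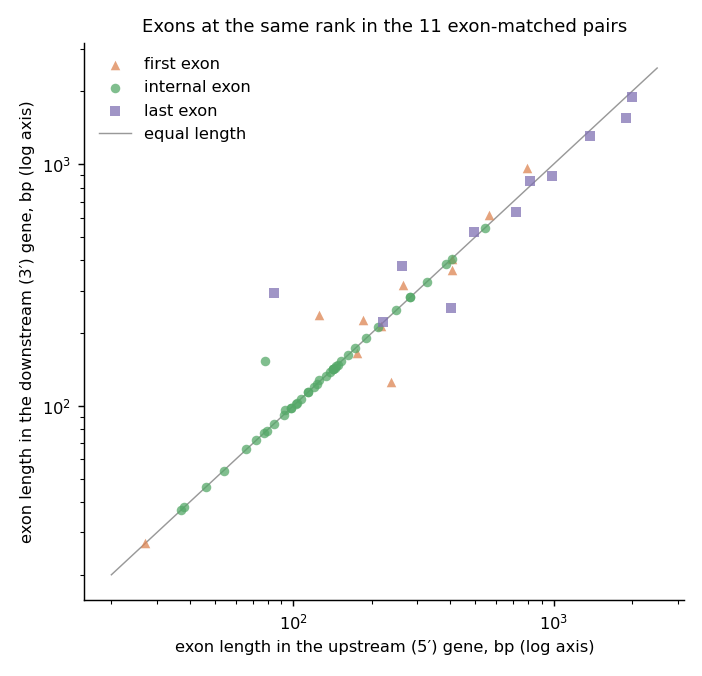
Exon lengths in base pairs of the upstream gene (horizontal, log axis) and of the downstream gene (vertical, log axis) for exons at the same rank in the 11 exon-matched pairs; symbols mark first, internal and last exons and the line marks equal length. Of 42 internal exons 39 lie on the line, against 2 of 11 first and 1 of 11 last exons.

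Orientation gave a contrast for this structure that used no counts beyond the choice of the regions. Of 1036 same-strand neighbours that met the gap, exon and intron limits, 139 (13.4%) had equal exon numbers, 41 (3.96%) also met the length ratio, and 11 (1.06%) were exon-matched. Of 954 opposite-strand neighbours under the same limits, 84 (8.81%) had equal exon numbers, 21 (2.20%) met the length ratio and 0 were exon-matched. Total intron length, which the rule only bounded, differed within exon-matched pairs by a median factor of 1.26, with a range of 1.02 to 2.34. The median factor was 1.92 in the other 30 pairs of equal exon number and 2.14 in the 21 opposite-strand pairs that met the length ratio. It was 2.49 in pairs of unequal exon number, where the number of introns differs as well. These are counts over neighbouring genes and carry no test.

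The pairs lay mostly towards the ends of the linkage groups. Of the 41 pairs, 29 (70.7%) were within 10 Mb of the first or last annotated gene of their linkage group, against 420 of 897 (46.8%) pairs of unequal exon number. Among all genes of these regions the share was 32.8%. LG03 carried 14 pairs (34.1%) and LG12 carried 11 (26.8%), against 17.4% and 19.4% of the pairs of unequal exon number. LG05, LG07 and LG09 carried 5 each (12.2%), against 12.2%, 21.6% and 16.3%. LG11 carried 1 (2.44%), against 13.2%. The 5 pairs of LG05 extended from 168769931 to 174283399, an interval whose ends are set by these pairs themselves. That interval held 19.4% of the 1476 LG05 genes searched and 44 (40.4%) of the LG05 pairs of unequal exon number. Pairs are numbered below in order of position along each linkage group.

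Both genes were detected, with at least 1 CPM (counts scaled to the library total) in every library, in 24 of the 41 pairs (58.5%). Exactly 1 gene was detected in 10 pairs (24.4%) and neither in 7 (17.1%). For the 897 pairs of unequal exon number the shares were 72.1%, 22.9% and 5.02%. Without replicate 4 both genes were detected in 27 pairs (65.9%), 1 gene in 7 and neither in 7, against 73.1%, 22.0% and 4.91% of the pairs of unequal exon number. Of the 81 genes, 57 (70.4%) were detected and 7 (8.64%) had no count in any library. Of the genes in pairs of unequal exon number 83.5% were detected and 4.79% had no count. The shares were 66.9% and 13.9% among all genes of these regions, which were not held to the exon and intron limits. Detected genes had a median of 39.6 ± 3.12 RPKM in pairs of equal exon number and 36.1 ± 1.01 RPKM in pairs of unequal exon number (mean and SD of the libraries' medians, n = 4), and the first was the higher in all 4 libraries. The median over all detected genes of these regions was 29.4 ± 0.352 RPKM. RPKM here is the count scaled to exon length and to the library total. In such bulk tissue, a low level in all cells and expression in few cells cannot be told apart.

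**Figure D2:**
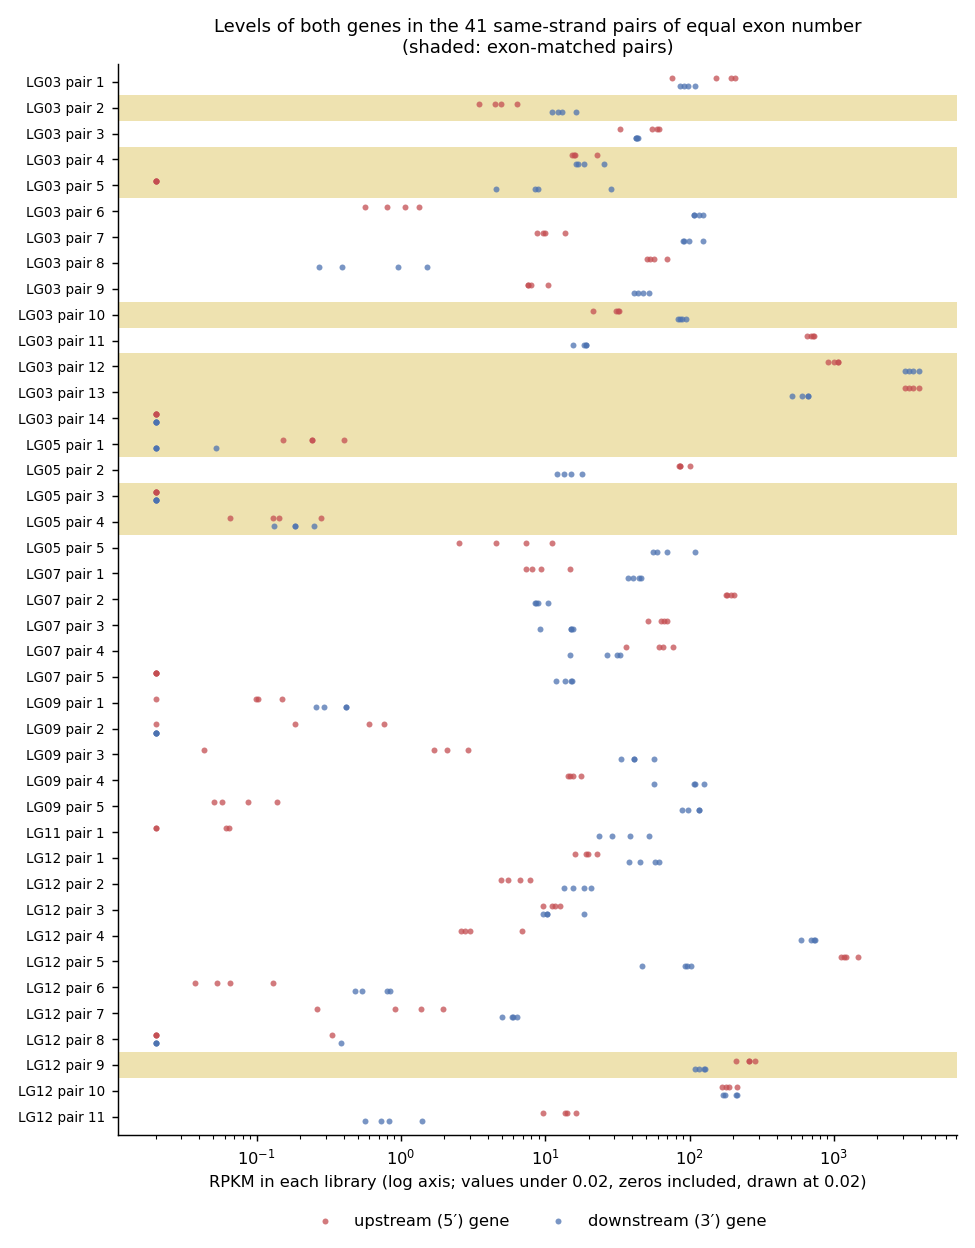
RPKM (log axis) of the upstream and the downstream gene of each of the 41 pairs, 1 point per library, with exon-matched pairs shaded and values under 0.02 RPKM drawn at 0.02. Both genes were detected in 24 pairs, 1 gene in 10 and neither in 7; the highest levels are those of LG03 pairs 12 and 13, which share a gene at 3460 RPKM.

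The highest levels belonged to a run of 3 adjacent genes on the plus strand of LG03, the single run of more than 2 members. It is made of LG03 pairs 12 and 13, both exon-matched. The genes extend from 182617058 to 182620755, from 182625652 to 182629516 and from 182645888 to 182650142. Each has 4 exons, with a second exon of 142 bp and the next of 281 bp in all 3 genes. The first exon is 126 bp in the first and the third gene and 237 bp in the second. The last exon is 2000 bp, 1904 bp and 1551 bp long in the first, the second and the third gene.

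The 3 genes of the run differed in level in the same order in every library. The first gene had 912, 1059, 1064 and 997 RPKM in replicates 1 to 4. The second, in the middle, had 3122, 3311, 3509 and 3896 RPKM. The third had 508, 665, 659 and 605 RPKM. The ranges of the 3 genes over the libraries did not overlap. The middle gene was 3.44 ± 0.335 times as high as the first and 5.72 ± 0.683 times as high as the third, and the first was 1.66 ± 0.0903 times as high as the third (SD, n = 4). The log2 ratio of upstream over downstream gene was −1.78 ± 0.14 in LG03 pair 12 (adjusted p = 3.6e-05, edgeR) and 2.51 ± 0.17 in LG03 pair 13 (adjusted p = 1.9e-05, edgeR). By mean RPKM the first, the second and the third gene ranked 44, 7 and 105 among all annotated genes. Together they took 1.27% ± 0.101 of all counts and 62.5% ± 2.26 of the counts of the 81 genes (SD, n = 4).

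**Figure D3:**
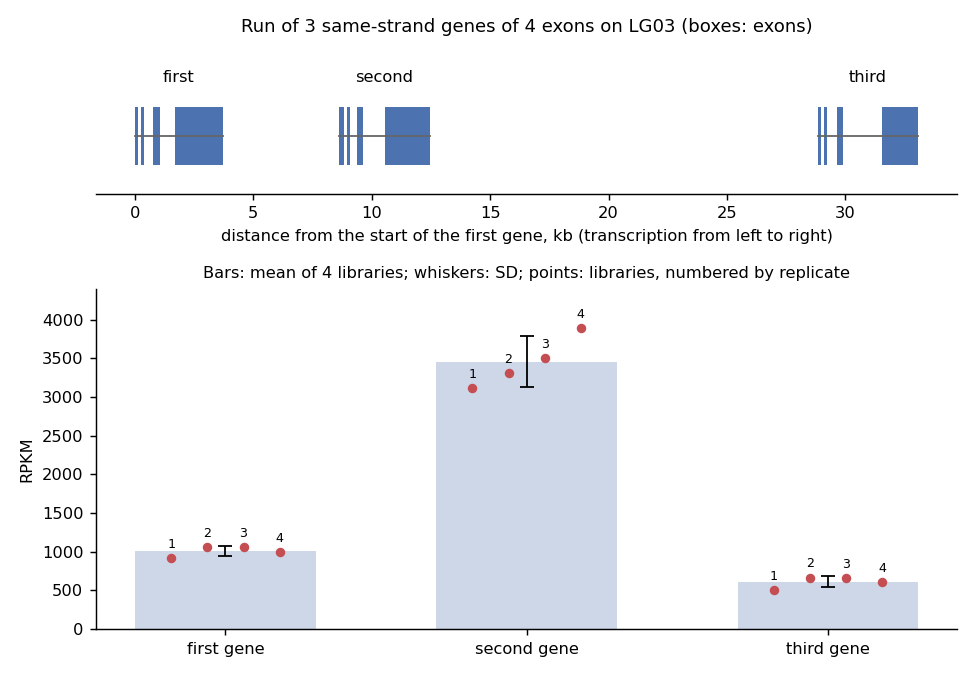
Top, exons (boxes) of the 3 adjacent genes of LG03 drawn to scale by distance in kb from the start of the first gene; bottom, their RPKM as mean (bar), SD (whisker, n = 4) and single libraries (points with replicate number). The middle gene lies between 3122 and 3896 RPKM, above the first (912 to 1064) and the third (508 to 665) in every library.

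A read with several alignments added a count at every one of them, per the file headers, so near-identical copies could share counts and their levels are uncertain. The counts of upstream and downstream gene lay within 10% in every library in 0 of the 41 pairs, against 6 of 897 pairs of unequal exon number (0.669%). With so few pairs at this limit in either set, sharing of counts was not tested by it. LG03 pair 4, which is exon-matched, came closest, with the lower count at 88.2%, 91.4%, 97.3% and 90.9% of the higher in replicates 1 to 4, and it met the limit without replicate 1.

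The other exon-matched pairs with both genes detected showed level differences of various sizes. LG03 pair 4 (5281662 to 5290258 and 5309412 to 5315701) has 7 exons, of which the 5 internal ones are 173, 98, 138, 190 and 133 bp long in both genes. Its upstream gene had 16.1, 15.2, 15.8 and 22.9 RPKM in replicates 1 to 4, and its downstream gene had 18.4, 16.8, 16.4 and 25.4 RPKM. Both genes were highest in replicate 4, and the log2 ratio of upstream over downstream was −0.13 ± 0.06 (SD, n = 4). The difference did not pass edgeR's quasi-likelihood test (adjusted p = 0.154).

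LG12 pair 9 (97978809 to 97982350 upstream, 97967836 to 97972417 downstream, minus strand) shares its first 3 of 4 exons, of 407, 98 and 66 bp. Its upstream gene had 259, 284, 257 and 210.2 RPKM in replicates 1 to 4, against 115, 127, 126 and 109 RPKM in the downstream gene, so the upstream gene was higher in every library. The log2 ratio was 1.08 ± 0.10 (SD, n = 4; adjusted p = 0.000128, edgeR). It was the exon-matched pair that differed by the test but was not called beyond 2-fold (adjusted p = 0.119, edgeR's glmTreat).

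LG03 pair 10 (168306347 to 168309969 and 168310612 to 168314044) shares internal exons of 148 and 407 bp, and only 642 bp separate its genes. Its upstream gene had 32.1, 30.9, 32.4 and 21.4 RPKM in replicates 1 to 4, against 82.8, 86.4, 94.6 and 89.1 RPKM in the downstream gene. The ranges did not overlap, and the log2 ratio was −1.61 ± 0.31 (SD, n = 4; adjusted p = 0.000231, edgeR). LG03 pair 2 (3954410 to 3958007 and 3959148 to 3963157) shares internal exons of 142 and 92 bp. Its upstream gene had 4.90, 3.45, 4.51 and 6.34 RPKM in replicates 1 to 4, and its downstream gene had 13.0, 16.4, 12.3 and 11.1 RPKM. The downstream gene was higher in every library, by the least in replicate 4, and the log2 ratio was −1.48 ± 0.59 (SD, n = 4; adjusted p = 0.00312, edgeR).

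In the remaining 5 exon-matched pairs at least 1 gene was not detected. LG03 pair 5, with 4 of 6 exons equal, had 0 counts in all libraries for the upstream gene (5489095 to 5491277), against 230, 274, 129 and 771 counts in replicates 1 to 4 for the downstream gene (5477380 to 5479376). A count of 0 allows up to 3 counts per library, so per length the downstream gene was at least 42.4-fold to 253-fold higher, the least in replicate 3 and the most in replicate 4. This bound covers counting error only. Neither gene had a count in LG03 pair 14 (3 of 4 exons equal) or in LG05 pair 3 (6 of 8). In LG05 pair 1 (3 of 5 equal) the upstream gene had 12, 23, 8 and 12 counts and the downstream gene 1, 3, 0 and 1. In LG05 pair 4 (10 of 14 equal) the upstream gene had 4, 5, 9 and 2 counts and the downstream gene 5, 8, 10 and 7. The 3 exon-matched pairs of LG05 thus all had both genes near or at 0. Among the 21 genes of exon-matched pairs 5 (23.8%) had no count, against 2 of the 60 genes (3.33%) in the other pairs of equal exon number, 78 of the 1629 genes (4.79%) in pairs of unequal exon number and 13.9% of all genes of these regions. In the 4 pairs with neither gene detected the counts lie under the detection floor, so neither a difference nor its absence can be read from them.

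Level differences within pairs were tested over all same-strand neighbours of the annotation with both genes detected. The upstream gene was set over the downstream gene in the same library (edgeR's quasi-likelihood test with Benjamini-Hochberg adjustment over 3414 pairs). Of the 24 pairs of equal exon number 19 differed at an adjusted p under 0.05, against 83.7% of all 3414 pairs and 86.6% of the 647 detected pairs of unequal exon number. In 8 the upstream gene was higher and in 11 the downstream gene, where all tested pairs gave 39.4% and 44.3%. Differences beyond 2-fold were called in 18 of 24, against 56.4% of all pairs and 58.9% of pairs of unequal exon number. Among the 6 tested exon-matched pairs 5 differed and 4 did so beyond 2-fold. Neighbouring genes share members between pairs (18 of the 81 genes also belong to a pair of unequal exon number), so the pairs are not independent.

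At these limits the median difference was larger in the 24 pairs of equal exon number than in pairs of unequal exon number. The latter were not held to the length ratio. The median absolute log2 ratio of RPKM within the 24 pairs was 1.93, 2.23, 1.91 and 1.97 in replicates 1 to 4, against 1.64, 1.63, 1.67 and 1.65 within the 647 pairs of unequal exon number. It was above the value of the unequal pairs in all 4 libraries, by 0.36 ± 0.16 (SD, n = 4). The middle 50% of the 24 pairs, by the mean over libraries, lay between 1.16 and 2.78. That of the 647 pairs lay between 0.71 and 2.72. These ranges overlapped in large part, but the lower quartile was higher in the 24 pairs. The median over all 3414 tested pairs was 1.53 in the edgeR fit. The 6 exon-matched pairs had a median of 1.48 ± 0.07 and the other 18 pairs of equal exon number 2.31 ± 0.13 (SD over libraries, n = 4). These SDs do not measure the spread between pairs. By the mean over libraries the 6 pairs ranged from 0.13 to 2.51 and the 18 from 0.04 to 7.62, so they overlapped. LG03 pairs 12 and 13, both among the 6, share a gene.

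The direction of this contrast depended on its limits. Where the shorter gene had to be at least 0.9 of the longer in pairs of equal exon number, 14 of these remained. Set against all 647 pairs of unequal exon number, of any length ratio, the difference in medians was −0.20, lower in pairs of equal exon number. Against the 16 detected opposite-strand neighbours that met the same limits it was −0.53. With no floor on detection, on log2(RPKM + 0.5), it was 0.0941, and at gaps up to 5000 bp it was 0.0870. Against the 157 detected pairs of unequal exon number that met the length ratio it was 0.165. The 68 detected pairs of equal exon number outside the length ratio limits had a median of 1.41, below the 1.65 of the 647 pairs of unequal exon number. That set of 68 was chosen after seeing the data. No test over the pairs is given, because the pairs were chosen with results of these data known. Of the 24 pairs 4 (16.7%) stayed under 2-fold in every library, against 143 of 647 (22.1%), and 4 (16.7%) were over 10-fold in every library, against 85 (13.1%). In single libraries the share under 2-fold averaged 22.9% ± 5.38 in the 24 pairs and 33.0% ± 0.511 in the 647 (SD, n = 4). All these shares differ by few of the 24 pairs.

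**Figure D4:**
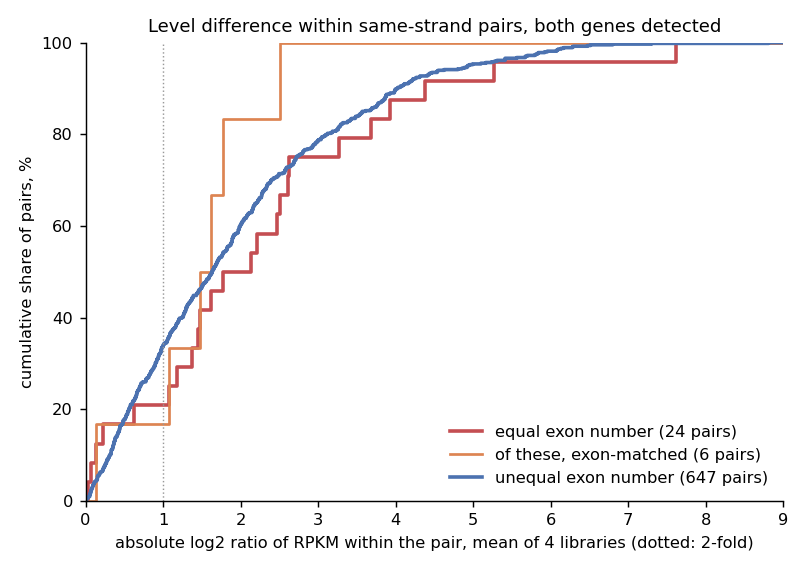
Cumulative share of pairs (%) by absolute log2 ratio of RPKM within the pair, averaged over 4 libraries, for 24 pairs of equal exon number, the 6 exon-matched pairs among them and 647 pairs of unequal exon number, all with both genes detected; the dotted line marks 2-fold. The lower quartile is 1.16 for equal and 0.71 for unequal exon numbers, and the upper quartiles are 2.78 and 2.72. All 6 exon-matched pairs lie below 2.52.

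Among the 24 pairs with both genes detected, the widest difference towards the upstream gene was that of LG03 pair 11, genes of 5 exons with no exon of equal length. EVM0013376 (181745319 to 181750675) had 649, 693, 714 and 728 RPKM in replicates 1 to 4, against 19.1, 19.2, 18.7 and 15.5 RPKM for EVM0012075 (181752501 to 181755912), 1825 bp downstream. The libraries of the 2 genes were far apart, with a log2 ratio of 5.27 ± 0.20 (SD, n = 4; adjusted p = 8.4e-06, edgeR). Among the same 24 pairs, the widest difference towards the downstream gene was that of LG12 pair 4, with 4 exons and no exon of equal length. EVM0000670 (73170985 to 73182459) had 2.62, 2.76, 3.01 and 6.84 RPKM, against 743, 695, 732 and 592 RPKM for EVM0000829 (73194986 to 73198659). Replicate 4 was the highest library for the first and the lowest for the second gene. The log2 ratio was −7.62 ± 0.80 (SD, n = 4; adjusted p = 4.35e-05, edgeR) and −8.01 in the fit without replicate 4.

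At the other extreme of these 24 pairs, LG12 pair 10 had almost equal levels, with 168, 177, 188 and 213 RPKM in replicates 1 to 4 for the upstream gene and 212, 209.8, 175 and 169 RPKM for the downstream gene. The ranges overlapped and the order turned between libraries, with a log2 ratio of −0.04 ± 0.31 (SD, n = 4; adjusted p = 0.822, edgeR). Its 3 exons had no equal lengths. Of the 5 pairs that did not pass the test, 1 was exon-matched (LG03 pair 4).

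**Figure D5:**
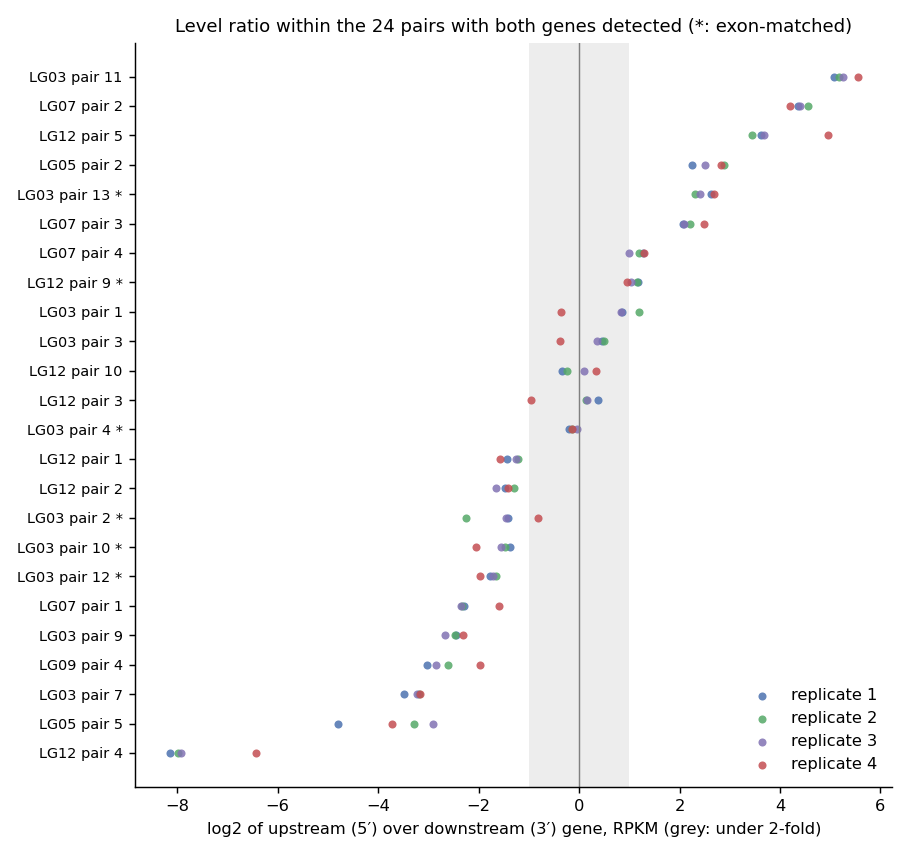
Log2 ratio of upstream over downstream gene (RPKM) in each library for the 24 pairs with both genes detected, sorted by their mean, with exon-matched pairs starred and the range under 2-fold in grey. The mean ratios extend from 5.27 in LG03 pair 11 to −7.62 in LG12 pair 4, and replicate 4 (red) is the library farthest from the others in 15 of 24 pairs.

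The SD of the log2 ratio within a pair over the 4 libraries had a median of 0.25 in the 24 pairs and 0.28 in the 647 pairs of unequal exon number, and ranged from 0.06 to 0.81 in the 24. Without replicate 4 the medians were 0.12 and 0.15. The library farthest from the mean of the other 3 was replicate 4 in 15 of the 24 pairs (62.5%) and in 386 of the 647 (59.7%). The upstream gene was higher in all libraries in 8 pairs and the downstream gene in 12. The order was mixed in 4 pairs (16.7%), against 84 of the 647, and in 3 of these 4 replicate 4 alone had the other order. The cause of the departure of replicate 4 was not tested.

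Where a single gene of the pair was detected, it was the upstream gene in 2 of 10 pairs and the downstream gene in 8. Among 205 such pairs of unequal exon number it was the upstream gene in 52.7% and the downstream gene in 47.3%. In 3 of the 8 (LG03 pair 6, LG09 pair 3 and LG12 pair 7) the upstream gene missed the floor in replicate 4 alone, and without that library the upstream gene was the detected one in 2 pairs and the downstream gene in 5. Without replicate 1 it was the upstream gene in 1 pair and the downstream gene in 8. With so few pairs this is a description without a test. In 8 of the 10 pairs the detected gene exceeded a mean of 10 RPKM, up to 114 RPKM in LG03 pair 6, while the mean of the other gene was at most 1.68 RPKM in all 10. In LG07 pair 5, of 2 exons each, the upstream gene had 0 counts in every library and the downstream gene had 672, 860, 776 and 577 counts, at least 193-fold to 287-fold higher per length by the same floor of 3 counts per library. In LG09 pair 3 the upstream gene had 48, 77, 41 and 1 counts and the downstream gene 795, 1110, 1020 and 1335, so replicate 4 was lowest for one gene and highest for the other.

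By exon number, the 15 detected pairs of 4 to 6 exons had a median absolute log2 ratio of 2.47, the 4 of 7 to 10 exons 1.75, the 3 of 3 exons 1.37 and the 2 of 2 exons 1.32. The ranges overlapped, from 0.04 to 2.22 at 3 exons and from 0.07 to 7.62 at 4 to 6. By distance, the medians were 1.61 for the 3 detected pairs up to 1000 bp apart, 1.78 for 11 pairs over 1000 and up to 5000 bp apart and 2.56 for 10 pairs farther apart, against 1.09, 1.74 and 1.65 in pairs of unequal exon number. The ranges of these distance classes overlapped as well.

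Pairs next to the limits of the rule are given here by their mean levels, the upstream gene before the downstream one. The widest gap inside was 19230 bp (LG09 pair 5, means of 0.0830 and 104 RPKM) and the nearest outside was 20152 bp, with means of 13.4 and 0.0176 RPKM. In exon length the longer gene was 1.24 times the shorter in the last pair inside, which had no counts, and 1.26 times in the first pair outside, with means of 95.4 and 4.80 RPKM. The smallest intron total inside was 542 bp (means of 6.38 and 73.3 RPKM) and the nearest outside 467 bp (0.0777 and 348 RPKM). The largest inside was 19469 bp (10.5 and 101 RPKM) and the nearest outside 26544 bp (10.1 and 47.2 RPKM).

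Of the 81 genes, 5 were among the 100 genes with the highest mean RPKM of the annotation, and 3 reached a mean of 1000 RPKM. These 3 were the first and second genes of the LG03 run and the upstream gene of LG12 pair 5. In that pair 3 of 10 exons had equal lengths, which left it short of the exon-matched pairs. Its upstream gene (88379577 to 88384886) had 1165, 1119, 1201 and 1457 RPKM in replicates 1 to 4, and its downstream gene (88391898 to 88396309) had 95.2, 103, 93.3 and 46.9 RPKM. The upstream gene was highest and the downstream gene lowest in replicate 4. The log2 ratio was 3.93 ± 0.69 (SD, n = 4; adjusted p = 0.000164, edgeR).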

How the data were processed

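Counts were deposited as whole reads per gene, 1 file per library. The authors made them with featureCounts 2.0.0 on exons, on the reverse strand, with reads aligning to several places counted at each, per the file headers. Trimmomatic 0.36 and HISAT2 2.0.5 are named in the submitters' processing notes. The headers name a Lachesis-scaffolded assembly without a build name. Coordinates are those of the files, counted from 1. The deposited RPKM values of all 28695 genes equalled those recomputed here from counts, exon length and library totals within 1e-06.

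Overlapping exons of a gene were merged, neighbours were taken by lowest start, and the gap was the number of bases between them. Each pair was fitted with edgeR 4.0.16 (R 4.3.3), with upstream and downstream counts as 8 columns, the library as a block, and library total and exon length as offsets. Pairs had at least 1 CPM in both genes in every library. Calls beyond 2-fold came from glmTreat. DESeq2 1.42.0 and limma 3.58.1 were alternatives. On simulated data with 3414 pairs the test recovered 21.0% of 200 planted pairs at 1.5-fold, 90.5% at 2-fold and 100% at 4-fold. False calls numbered 2, 9 and 7. All pairs not planted were simulated as equal, with counts drawn from the fitted dispersion. In the data 83.7% of pairs were called, which changes the cut-off of the adjustment. The recovered shares and false calls therefore hold for the simulated setting and do not give the power in these data.

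Depth was 22252534 to 25434148 counts, so 3 counts correspond to 0.118 to 0.135 CPM. Intervals and floors cover counting error only. Identifiers named are those of the widest ratio in each direction beyond 2-fold, among pairs with both genes detected. Other pairs were described by position. The planned ones were the highest of all and of exon-matched pairs, the longest runs and those next to the limits of the rule. The pair of 4 or more exons nearest to equal counts was planned as well. LG03 pairs 2, 5, 6 and 10, LG05 pairs 1, 3 and 4 and the pairs of LG07 fall outside that plan. So do LG09 pair 3 and LG12 pairs 5, 9 and 10. All of these were chosen after their values were seen. The members and lists were chosen with earlier results of these data known.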

Additional observations from a re-analysis of the deposited data

Results flagged for a closer look

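In a group of 4 libraries, a value was marked where the highest or lowest library lay apart from the other 3 by more than Dixon's 95% critical value allows. Chance marks about 1 value in 20. Of 52 values examined, which overlap in part, 6 were marked, 5 of them for replicate 4. The log2 ratio of LG03 pair 3 was −0.38 in replicate 4, against 0.36 to 0.50 in the others. That of LG07 pair 1 was −1.59 in replicate 4, against −2.35 to −2.29. That of LG12 pair 4 was −6.43 in replicate 4, against −8.15 to −7.93. That of LG12 pair 5 was 4.96 in replicate 4, against 3.45 to 3.69. That of LG03 pair 7 was −3.49 in replicate 1, against −3.23 to −3.17. The share of exon-matched pairs under 2-fold was 50% in replicate 4, against 16.7% in each other library, over 6 pairs. With the other libraries tied, any departure would have been marked, so the rate of 1 in 20 does not apply to this share. The labels give no batch, and the cause was not tested.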

How the results depend on the processing

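Of 80 alternatives over 10 results, 64 left the value within a set limit. That limit was its spread over the libraries, 10% for the spread of ratios, or 1.5 times the count. The 2 named identifier pairs kept direction and call in all of theirs, which count among the 64. They were picked as the widest pairs, so this was nearly fixed beforehand. Normalization factors per library (TMM) scale both genes of a pair alike, so they could not change the test. The 64 is therefore no measure of robustness. The median difference between equal and unequal pairs (0.36 log2) became 0.60 with a floor of 10 CPM, 0.0941 with no floor, 0.20 with CPM, 0.165 against unequal pairs that met the length ratio, 0.66 without exon-matched pairs and 0.0870 at gaps of 0 to 5000 bp. It turned to −0.53 against opposite-strand neighbours and −0.20 where the shorter gene was at least 0.9 of the longer in the equal pairs alone. Against pairs of equal exon number with a length ratio outside the limits, an alternative chosen after seeing the data, it was 0.59. It was 0.28 to 0.50 with a library left out. The cause of these changes was not tested. Without a filter on counts 39 pairs of equal exon number were tested, and 32 differed, 30 of them beyond 2-fold. Without the replicate block (the library shared by both genes of a pair) 20 differed, 17 beyond 2-fold. With a library left out 19 to 24 differed, 16 to 22 beyond 2-fold, the most without replicate 4, where 27 pairs were tested. Pairs with counts within 20% numbered 1, and 0 to 1 pairs were within 10% with a library left out. The spread of ratios was 0.12 (without replicate 4) to 0.30 when each library was dropped in turn. A floor of 1 CPM is about 22 to 25 counts. In simulated data where most pairs were equal, unlike these, the test recovered 21.0% of differences of 1.5-fold.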

Other observations

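LG03 pairs 1 and 2 are neighbours, and the gap between them is bridged by the pair just outside the length ratio limit. The 4 consecutive genes (3919835 to 3963157, plus strand) all have 4 exons. The second exon is 142 bp long in the second, the third and the fourth gene and 391 bp in the first. The third exon is 92 bp in the third and the fourth gene, 605 bp in the second and 102 bp in the first. Mean levels were 157 ± 59.3, 95.4 ± 9.76, 4.80 ± 1.20 and 13.2 ± 2.26 RPKM from the first to the fourth gene (SD, n = 4). The first gene was lowest in replicate 4, at 75.6 RPKM against 152 to 207 RPKM in the other libraries. The stretch was chosen after its values were seen, and no sequence was compared.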
